A study of Mus musculus with 6 samples.

Results

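Major histocompatibility complex (MHC) class I molecules carry short peptides from a cell's own proteins to its surface. Described here are 10 mouse genes of this pathway among the 24346 gene symbols measured in prostate luminal cells that over-expressed the cytokine CSF1 and in wild-type (WT) luminal cells. The 10 were taken by symbol. They are the heavy chain genes H2-K1, H2-D1, H2-Q4, H2-Q7, H2-Q8 and H2-T23, the light chain gene B2m, the peptide transporter genes Tap1 and Tap2, and the tapasin gene Tapbp. Both groups were luminal cells, the secretory epithelium of the gland, sorted by flow cytometry from C57BL/6 mice aged 4 months. The CSF1 libraries came from mice with a transgene for mouse Csf-1, expressed from rat probasin's promoter, which works in luminal cells, and the WT libraries came from littermates. Each group held 3 libraries, numbered 3, 5 and 8 in both. Which surface markers were sorted on is not given in the sources used here. Whether each library was a separate animal is not in the labels, so p-values reflect just the spread among these libraries, which may be technical.

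A class I molecule is a heavy chain paired with beta-2 microglobulin, the light chain. Proteasomes cut proteins into peptides, the transporter formed by TAP1 and TAP2 moves them into the endoplasmic reticulum (ER), and tapasin holds an empty class I molecule at the transporter until a peptide is bound. Classical class I molecules show peptides to CD8 T cells, and nonclassical ones such as Qa-1 are read by natural killer cells as well. Interferons are known to raise transcription of most of these genes through interferon regulatory factors and the coactivator NLRC5.

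Levels are FPKM, a fragment level corrected for transcript length and library size, summed over the transcripts of a symbol. Changes are CSF1 over WT on the log2(FPKM + 1) scale with their standard error (SE), and the test is limma's with Benjamini-Hochberg adjustment over 10951 genes and a threshold of 0.05. The files give no fragment totals. The deposited coverage divided by FPKM is larger in deeper libraries, and it was 4.17 to 5.01 in CSF1 libraries and 2.72 to 3.50 in WT libraries, and 11102 to 11231 genes lay above 1 FPKM in CSF1 libraries against 9926 to 10089 in WT libraries. Csf1 itself had 1082, 1326 and 1678 FPKM in CSF1 replicates 3, 5 and 8, against 1.54, 2.25 and 3.98 FPKM in WT replicates 3, 5 and 8, so the over-expressed gene was high in the libraries labelled so. The luminal genes Krt8, Krt18 and Epcam stood at 850 FPKM or more in every CSF1 library and at 612 FPKM or more in every WT library. Markers of other cell types were also present, and among those averaging at least 1 FPKM in WT, 8 of 8 macrophage, 3 of 3 basal and 3 of 3 stroma markers were called higher in CSF1. Of all genes at that WT level, 19.7% were called higher. The other macrophage and stroma markers tested, and every endothelial, dendritic cell and lymphocyte marker tested, entered the test only through their CSF1 values, so their calls are not counted. The 14 macrophage markers summed to 869, 1075 and 3494 FPKM in CSF1 replicates 3, 5 and 8, against 27.4, 37.3 and 134 FPKM in WT replicates. The 4 basal cell markers summed to 393 to 526 FPKM in CSF1 against 26.9 to 40.0 FPKM in WT, and the 7 stroma markers to 496 to 729 FPKM in CSF1 against 96.9 to 113 FPKM in WT. Most of the basal sum was Krt15, at 304 to 356 FPKM in CSF1 and 16.1 to 27.9 FPKM in WT. Most of the stroma sum was Dcn, at 394 to 522 FPKM in CSF1 and 88.2 to 102 FPKM in WT. The basal gene Trp63 was too low to test, and its groups overlapped. In bulk samples fewer cells of a type and less RNA per cell cannot be told apart. The part of these other cell types in the results below was not tested.

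The promoters of the heavy chain genes and B2m are shown first, because their shared motifs are the known route by which these genes are switched on together. Each stretch is from RefSeq (GRCm38.p6), 5′ to 3′ on the gene's own strand. Capitals mark matches, on either strand, to GAANNGAAA or the same letters with a further A before the gap (the element bound by interferon regulatory factors, in a short and a long spelling), GGGNNTTCC (an NF-kB-like site), TGACG (part of the X box of class I promoters) and CCAAT (the Y box, often read as ATTGG). H2-Q10 is shown as a class I gene of the same chromosome that did not pass the test described below, so it was not picked blind to its result. The other heavy chain genes that did not pass, H2-Q2, H2-T10 and H2-T24, are not shown.

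H2-K1: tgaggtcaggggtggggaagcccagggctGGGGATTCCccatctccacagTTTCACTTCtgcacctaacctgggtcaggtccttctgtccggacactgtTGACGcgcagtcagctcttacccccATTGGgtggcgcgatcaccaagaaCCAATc
H2-D1: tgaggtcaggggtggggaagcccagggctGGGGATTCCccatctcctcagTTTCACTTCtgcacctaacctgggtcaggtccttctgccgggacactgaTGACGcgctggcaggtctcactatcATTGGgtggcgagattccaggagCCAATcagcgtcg
H2-Q4: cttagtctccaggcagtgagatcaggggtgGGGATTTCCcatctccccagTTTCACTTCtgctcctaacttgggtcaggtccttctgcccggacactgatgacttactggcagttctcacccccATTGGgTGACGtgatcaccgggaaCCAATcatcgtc
H2-Q7: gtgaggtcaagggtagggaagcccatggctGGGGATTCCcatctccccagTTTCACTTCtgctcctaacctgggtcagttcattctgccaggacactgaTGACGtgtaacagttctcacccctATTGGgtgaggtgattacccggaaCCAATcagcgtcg
H2-T23: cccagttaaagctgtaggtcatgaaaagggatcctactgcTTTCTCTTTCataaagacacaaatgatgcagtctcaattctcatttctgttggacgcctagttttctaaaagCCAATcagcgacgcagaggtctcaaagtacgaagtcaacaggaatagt
B2m: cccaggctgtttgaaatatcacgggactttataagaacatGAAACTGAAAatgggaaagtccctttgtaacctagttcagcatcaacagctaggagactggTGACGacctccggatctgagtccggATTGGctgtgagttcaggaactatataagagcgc
H2-Q10: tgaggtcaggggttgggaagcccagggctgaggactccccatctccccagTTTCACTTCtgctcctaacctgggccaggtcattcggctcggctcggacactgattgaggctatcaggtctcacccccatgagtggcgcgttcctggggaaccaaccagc

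These stretches lie at chr17:34000334-34000487 (minus strand) for H2-K1, chr17:35262894-35263053 (plus) for H2-D1, chr17:35379414-35379573 (plus) for H2-Q4, chr17:35438992-35439151 (plus) for H2-Q7, chr17:36032706-36032865 (minus) for H2-T23, chr2:122147508-122147667 (plus) for B2m and chr17:35469884-35470043 (plus) for H2-Q10. Promoter entries were matched by symbol for 8 of the 10 genes, and H2-Q8 and Tap2 had none. Within the 250 bases before the start site, H2-K1, H2-D1, H2-Q4 and H2-Q7 each held 1 GAANNGAAA, 1 GGGNNTTCC, 1 TGACG and 2 CCAAT matches. In H2-K1 the interferon-type match began 104 bases before the start site and the NF-kB-like match 125 bases before it, so they stand side by side. H2-Q4 kept this pair, but its TGACG lay beside the CCAAT match, 73 bases before the start, rather than at the place it has in H2-K1, H2-D1 and H2-Q7. H2-T23 and B2m held the long spelling and no GGGNNTTCC match. Tap1 and Tapbp held neither interferon-type spelling in this window. Over all 32851 promoters of the same length, 6.31% held GAANNGAAA, 2.98% held the long spelling, 4.98% held GGGNNTTCC, 17.8% held TGACG and 33.9% held CCAAT. The H2-Q10 stretch was 79.8% identical to that of H2-K1, close to the 80.3% of H2-Q7 and between the 75.6% of H2-Q4 and the 85.7% of H2-D1. Of the searched letters H2-Q10 held only GAANNGAAA, and Tapbp, which was higher in CSF1, held only CCAAT. Whether these letters bear on the changes below was not tested. These matches describe letters and do not show that a factor was bound, and other spellings of these sites were not searched.

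All 10 genes were higher in CSF1 cells and passed the test, and in each the lowest CSF1 library lay above the highest WT library. Of all 10951 genes tested, 24.9% were called higher (2731 genes) and 7.47% lower, and 34.7% had every CSF1 library above every WT library. H2-Q8 was listed at 0 in every WT library and entered the test only through its CSF1 values. The other 9 genes averaged at least 1 FPKM in WT cells, and their median change was 1.67. Among all genes with at least 1 FPKM in WT, 19.7% were called higher and the median change was 0.12. Together the 10 genes made up 1.58%, 1.38% and 1.61% of all FPKM in CSF1 replicates 3, 5 and 8, against 0.696%, 0.561% and 0.604% in WT replicates. The deposited FPKM were not rescaled. The median change of all tested genes was 0.17, so the median of the 10 genes (1.68) lay 1.51 above it. After quantile normalization these medians were -0.16 for all genes and 1.28 for the 10 genes, a gap of 1.44. Calls over all genes split differently with the scaling, with 77.0% of them higher as deposited, 41.8% after quantile normalization, 53.6% after median-ratio scaling and 59.7% after rescaling outside the 5 most abundant genes.

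**Figure D1:**
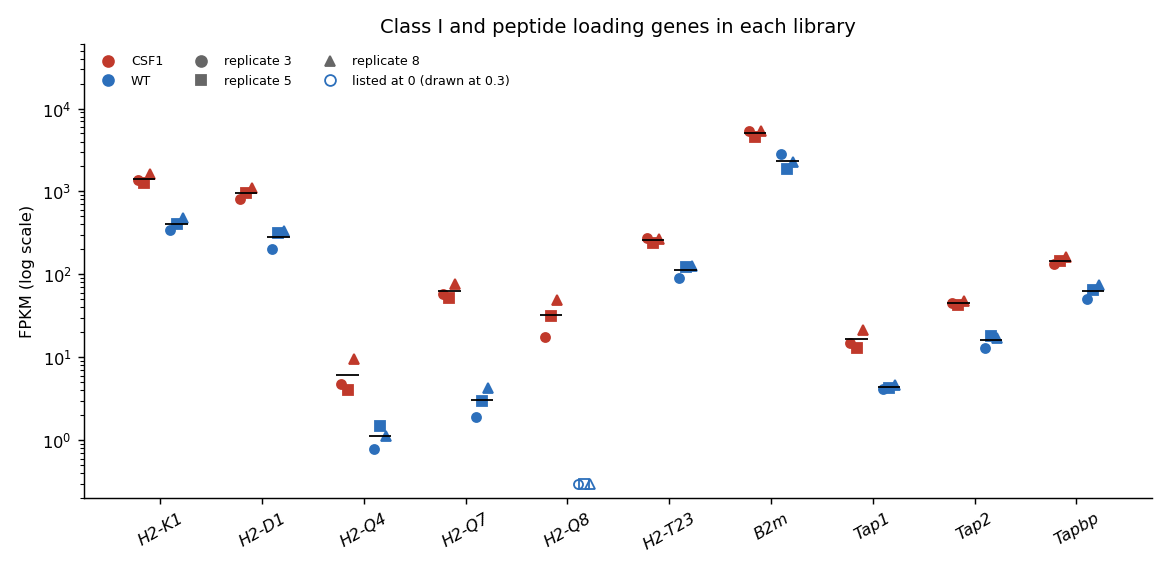
FPKM (log axis) of each of the 10 genes in the 3 CSF1 libraries (red, left) and the 3 WT libraries (blue, right), with marker shapes for replicates 3, 5 and 8 and a black line at the mean. Every CSF1 library lay above every WT library for each gene, and the open symbols of H2-Q8 mark WT libraries listed at 0.

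The classical heavy chains H2-K1 and H2-D1 were the most abundant heavy chains in both groups and rose by nearly the same amount. H2-K1 lies on chromosome 17 from 33996012 to 34000333 (mm10, minus strand) and encodes H-2K, a classical peptide-presenting chain. It had 1374, 1259 and 1609 FPKM in CSF1 replicates 3, 5 and 8, against 341, 410 and 474 FPKM in WT replicates. Its lowest CSF1 value was well above its highest WT value, and its change was 1.79 ± 0.16 (SE, limma adjusted p = 0.00011). H2-D1, from 35263094 to 35267497 on the plus strand, encodes H-2D, the other classical chain measured. It had 815, 951 and 1110 FPKM in CSF1 replicates and 200, 318 and 332 FPKM in WT replicates, a change of 1.78 ± 0.21 (SE, limma adjusted p = 0.000471). WT replicate 3 was the lowest library for both chains, and CSF1 replicate 8 the highest. Among all genes, H2-K1 ranked 32 to 35 by FPKM in the CSF1 libraries and 143 to 186 in the WT libraries. The ratio of H2-K1 to H2-D1 was 1.69, 1.32 and 1.45 in CSF1 replicates 3, 5 and 8 and 1.71, 1.29 and 1.42 in WT replicates 3, 5 and 8, so it differed by library number more than by group.

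The Q region chains showed the widest range of change. H2-Q7, from 35439155 to 35443773, encodes a chain of Qa-2, a nonclassical molecule that can be anchored by lipid. It had 58.2, 51.3 and 77.5 FPKM in CSF1 replicates, against 1.91, 3.00 and 4.20 FPKM in WT replicates. The groups were far apart, with means of 62.3 ± 13.6 in CSF1 and 3.04 ± 1.15 FPKM in WT (SD, n = 3 each), a 20.5-fold difference of means and a change of 3.99 ± 0.24 (SE, limma adjusted p = 1.66e-05). The transcripts of H2-Q7 did not share this difference evenly. Its 1134-base transcript had 48.3, 35.5 and 52.8 FPKM in CSF1 replicates and was listed at 0 in every WT library. Its 1419-base transcript had 9.92, 15.7 and 24.7 FPKM in CSF1 and held all of the gene's FPKM in WT, at 1.91, 3.00 and 4.20. The 1536-base transcript was listed at 0 in all 6 libraries.

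H2-Q8, from 35424847 to 35428361, encodes another Qa-2 chain. It had 17.6, 31.2 and 49.5 FPKM in CSF1 replicates 3, 5 and 8 and was listed at 0 in each WT library, so no fold is given. It entered the test only through these CSF1 values, so no p-value is given either. Its locus overlaps that of H2-Q6, and the H2-Q7 locus overlaps that of H2-Q9, so the same reads may have been divided between the models of each pair. In the GENCODE transcripts 29.9% of the 50-base words of H2-Q7 also occurred in another heavy chain gene, 20.7% in H2-Q6. For the other heavy chains matched this was 8.79% (H2-K1), 11.1% (H2-T23), 12.0% (H2-D1) and 14.7% (H2-Q4). GENCODE transcripts were found for 27 of the 31 heavy chain genes, so these shares may be understated. H2-Q8 itself was not matched. The separate values of H2-Q7 and H2-Q8 are therefore uncertain. The loci of H2-D1, H2-T23 and B2m overlap those of H2-L, A930015D03Rik and Patl2 in the deposited tables, and with no strand marked, reads of such pairs cannot be told apart. The sum of H2-Q6, H2-Q7, H2-Q8 and H2-Q9, which depends less on how reads were divided among them, was 149, 143 and 205 FPKM in CSF1 replicates against 6.08, 10.32 and 10.9 FPKM in WT replicates. As a share of all heavy chain FPKM these 4 genes held 5.24%, 5.14% and 6.10% in CSF1 and 0.705%, 1.01% and 0.979% in WT.

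H2-Q4, from 35379617 to 35384674, is a nonclassical chain gene and the least abundant of the 10 in CSF1 cells. It had 4.79, 4.08 and 9.57 FPKM in CSF1 replicates and 0.777, 1.47 and 1.13 FPKM in WT replicates, a change of 1.68 ± 0.29 (SE, limma adjusted p = 0.00293). CSF1 replicate 8 was 2.16 times the mean of the other CSF1 libraries, and Cufflinks' own interval spanned 22.5% to 32.4% of the value either way in the WT libraries. H2-T23, from 36029977 to 36032701, encodes Qa-1, which shows signal peptides of other class I chains to the CD94/NKG2 receptors of natural killer cells. It had 271, 237 and 270 FPKM in CSF1 replicates and 91.0, 124 and 128 FPKM in WT replicates. Its CSF1 libraries were the most alike of the 6 heavy chain genes among the 10, and its change of 1.19 ± 0.16 (SE, limma adjusted p = 0.000768) was the smallest among the 5 heavy chains with WT values above 0.

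Summed over the 6 heavy chain genes, FPKM was 2540, 2534 and 3126 in CSF1 replicates 3, 5 and 8, against 634, 857 and 939 in WT replicates. The means were 2733 ± 340 in CSF1 and 810 ± 158 in WT (SD, n = 3 each, exact two-sided permutation p = 0.1, the smallest that 3 against 3 allows). This was a 3.37-fold difference of means. H2-K1 and H2-D1 made up 77.2%, 79.6% and 80.9% of the FPKM of all 31 class I heavy chain genes in the tables in CSF1, against 62.7%, 71.4% and 72.6% in WT.

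B2m, on chromosome 2 from 122147687 to 122153082 and so outside the MHC, encodes the light chain shared by all class I molecules. It had 5370, 4483 and 5382 FPKM in CSF1 replicates, against 2838, 1858 and 2282 FPKM in WT replicates. It was among the most abundant genes of every library, ranked 5 to 7 in CSF1 and 10 to 18 in WT. The change was 1.14 ± 0.18 (SE, limma adjusted p = 0.00188), the smallest of the 10. WT replicate 3 had the highest B2m of its group and the lowest heavy chain sum. The ratio of summed heavy chains to B2m was 0.473, 0.565 and 0.581 in CSF1 replicates and 0.224, 0.461 and 0.412 in WT replicates. The groups did not overlap, at 0.540 ± 0.0583 in CSF1 and 0.365 ± 0.125 in WT (SD, n = 3 each, exact two-sided permutation p = 0.1, the smallest possible). The gap rests in large part on WT replicate 3, since the log2 difference was 0.62 with it and 0.30 without it. With all 31 heavy chain genes in the sum the difference was 0.44 and the groups overlapped (exact two-sided permutation p = 0.2).

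The transporter and its partner tapasin rose as well. Tap1 (34187556 to 34197225) and Tap2 (34204479 to 34216321) encode the paired chains of the peptide transporter. Tap1 had 15.0, 12.9 and 21.3 FPKM in CSF1 replicates and 4.14, 4.32 and 4.64 FPKM in WT replicates, a change of 1.67 ± 0.20 (SE, limma adjusted p = 0.000425). Tap2 had 45.5, 42.7 and 47.9 FPKM in CSF1 replicates and 13.0, 18.1 and 17.0 FPKM in WT replicates, a change of 1.45 ± 0.15 (SE, limma adjusted p = 0.000238). Per length, Tap2 was listed above Tap1 in all 6 libraries. The ratio of Tap1 to Tap2 was 0.330, 0.301 and 0.445 in CSF1 and 0.318, 0.238 and 0.273 in WT. It was higher in CSF1 in each of the 3 pairs of libraries with the same number, by amounts that varied. The groups overlapped, and the unpaired test did not reach the threshold (log2 difference 0.37, exact two-sided permutation p = 0.2, with 0.1 the smallest possible). The difference was 0.20 without CSF1 replicate 8.

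Tapbp (33919478 to 33929290) encodes tapasin, which holds class I molecules at the transporter while they are loaded. It had 134, 144 and 161 FPKM in CSF1 replicates, against 50.4, 65.4 and 74.5 FPKM in WT replicates. The change was 1.21 ± 0.17 (SE, limma adjusted p = 0.000884). Its FPKM was split between a 2747-base and a 2750-base transcript, and the shorter one took 60.2%, 55.8% and 56.4% in CSF1 and 57.6%, 54.4% and 55.9% in WT, so the split overlapped between the groups. All FPKM of Tap1 lay on its 2950-base transcript in each library.

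Of the 25 other class I heavy chain genes of the MHC in the tables, 11 were tested, 7 were higher in CSF1 and 0 lower (limma, 0 lower also at an unadjusted p under 0.05), with a median change of 1.02. Among the 9 with at least 1 FPKM in WT, 6 were higher. Of all genes tested 24.9% were called higher, and of those at that WT level 19.7%. Another 13 of the 25 lay below 0.2 FPKM in every library, and 9 of these were listed at 0 throughout. The last, H2-M2, named after its values were seen, lay under the minimum for testing. H2-Q9, whose model lies within the H2-Q7 locus, had 41.6, 41.0 and 51.7 FPKM in CSF1 replicates and 1.20, 2.27 and 2.10 FPKM in WT replicates (change 4.02 ± 0.20, SE, limma adjusted p = 5.94e-06). H2-Q6, whose model lies within the H2-Q8 locus, averaged 25.6 ± 5.92 in CSF1 and 4.20 ± 1.09 FPKM in WT (SD, n = 3 each). The calls of H2-Q9 and H2-Q6 are therefore not independent of those of H2-Q7 and H2-Q8. H2-T9, whose locus overlaps H2-T22, rose by only 0.53 (limma adjusted p = 0.0361) and missed the threshold under 3 other scalings and with any 1 library left out except WT replicate 5. H2-Q10, a chain known as a secreted class I molecule made mainly in liver, did not pass. It had 132, 102 and 59.6 FPKM in CSF1 replicates and 191, 109 and 121 FPKM in WT replicates (change -0.55 ± 0.31, SE, limma adjusted p = 0.212), and the groups overlapped. H2-Q10 held 4.66%, 3.67% and 1.77% of all heavy chain FPKM in CSF1, against 22.2%, 10.7% and 10.9% in WT. The other genes that did not pass were H2-Q2, H2-T10 and H2-T24, named after their values were seen, with changes of -0.32, 0.48 and 0.41.

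**Figure D2:**
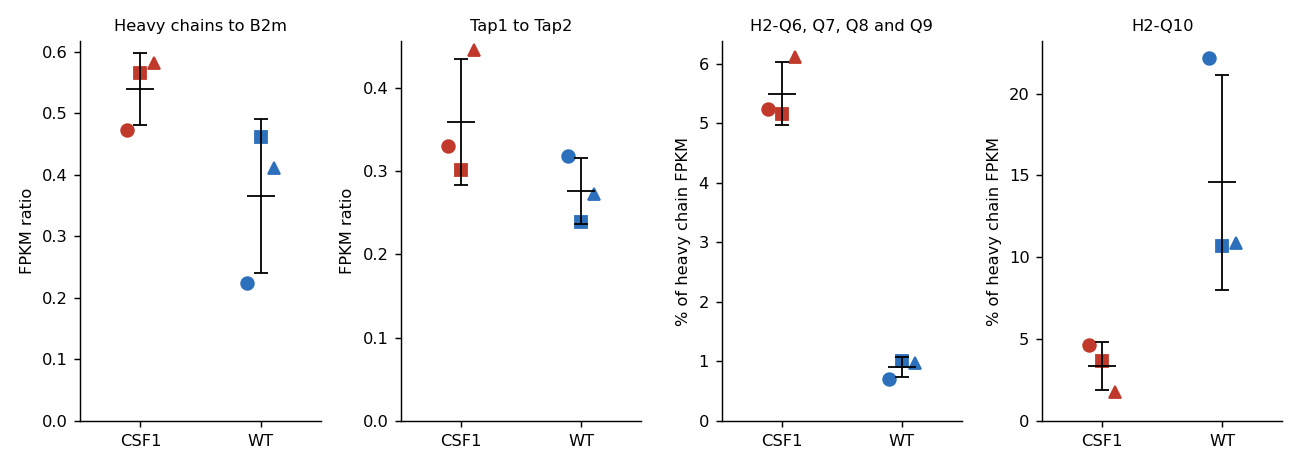
Heavy chain to B2m and Tap1 to Tap2 FPKM ratios, and the percent of all heavy chain FPKM held by H2-Q6, H2-Q7, H2-Q8 and H2-Q9 together and by H2-Q10, for CSF1 (red) and WT (blue) libraries, with mean and SD in black. The Q6 to Q9 share was 5.14% to 6.10% in CSF1 and 0.705% to 1.01% in WT, while the Tap1 to Tap2 ratios overlapped.

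Outside the MHC, 5 of 9 class I-like genes averaged at least 1 FPKM in WT, and of these 3 were higher and 1 lower. At that WT level 19.7% of all 9945 genes were called higher, and 818 genes were called lower. Azgp1, which encodes the secreted zinc-alpha-2-glycoprotein with a class I fold, had 278, 262 and 167 FPKM in CSF1 replicates, against 793, 1032 and 1200.1 FPKM in WT replicates (change -2.11 ± 0.23, SE, limma adjusted p = 0.000255). Fcgrt, the heavy chain of the neonatal Fc receptor and like H2-K1 a partner of beta-2 microglobulin, averaged 15.8 ± 1.59 in CSF1 and 1.37 ± 0.550 FPKM in WT (SD, n = 3 each). Procr, the endothelial protein C receptor, had 19.9, 22.7 and 56.4 FPKM in CSF1 replicates and 1.53, 1.66 and 2.45 FPKM in WT replicates. Hfe, which regulates iron uptake and also pairs with beta-2 microglobulin, rose by 0.87.

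The ER folding genes that tapasin works with were lower in CSF1 or did not pass. Of 8 ER loading and trimming partners 2 were higher, 2 were lower and 4 did not pass, with a median change of -0.24. All 8 averaged at least 1 FPKM in WT. Of the 9945 genes at that level 19.7% were called higher, against 25% of these 8, and 818 were called lower. The chaperone gene Calr had 605, 496 and 427 FPKM in CSF1 replicates, against 879, 806 and 931 FPKM in WT replicates (change -0.79 ± 0.15, SE, limma adjusted p = 0.00527). Uggt1, which checks glycoprotein folding, fell by 0.89 (limma adjusted p = 0.00284). Canx and Pdia3, a lectin chaperone and the thiol oxidoreductase of the loading complex, had changes of -0.35 and -0.38 that did not pass. Canx was called lower under quantile normalization, median-ratio scaling and rescaling outside the 5 most abundant genes, and Pdia3 under median-ratio scaling. Ganab (-0.12) and Lnpep (0.22) did not pass either. The peptide trimming enzyme gene Erap1 averaged 20.0 ± 0.854 in CSF1 and 12.6 ± 2.37 FPKM in WT (SD, n = 3 each), and rose by 0.64, a call lost without CSF1 replicate 5 (limma adjusted p = 0.0561), without WT replicate 5 (0.0617) and under quantile normalization (0.0568). Tapbpl, which encodes the tapasin-related peptide editor TAPBPR, rose by 0.82.

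Peptides are cut by immunoproteasomes, which interferon induces, and by constitutive proteasomes. All 5 immunoproteasome and activator genes were higher, with changes of 2.20 for Psmb8, 1.86 for Psmb9, 1.60 for Psme1, 1.40 for Psme2 and 0.79 for Psmb10. Each averaged at least 1 FPKM in WT, a level at which 19.7% of all genes were called higher. Of the constitutive catalytic subunits Psmb5, Psmb6 and Psmb7, 0 of 3 passed (limma, 0 of 3 also at an unadjusted p under 0.05), with changes of -0.05, 0.09 and 0.11 and overlapping groups. The ratio of Psmb8 to Psmb5, the subunit it replaces, was 0.680, 0.630 and 0.875 in CSF1 replicates and 0.156, 0.156 and 0.127 in WT replicates. Psmb9 to Psmb6 was 0.163 to 0.218 in CSF1 and 0.0467 to 0.0644 in WT, and Psmb10 to Psmb7 was 0.472 to 0.597 in CSF1 and 0.311 to 0.339 in WT. Tap1, Tap2, Psmb8 and Psmb9 are neighbours, within 34.2 kb of chromosome 17 from 34182099 to 34216321. Psmb9 and Tap1 are transcribed away from each other, with 225 bases between them, and both rose, by 1.86 and 1.67.

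**Figure D3:**
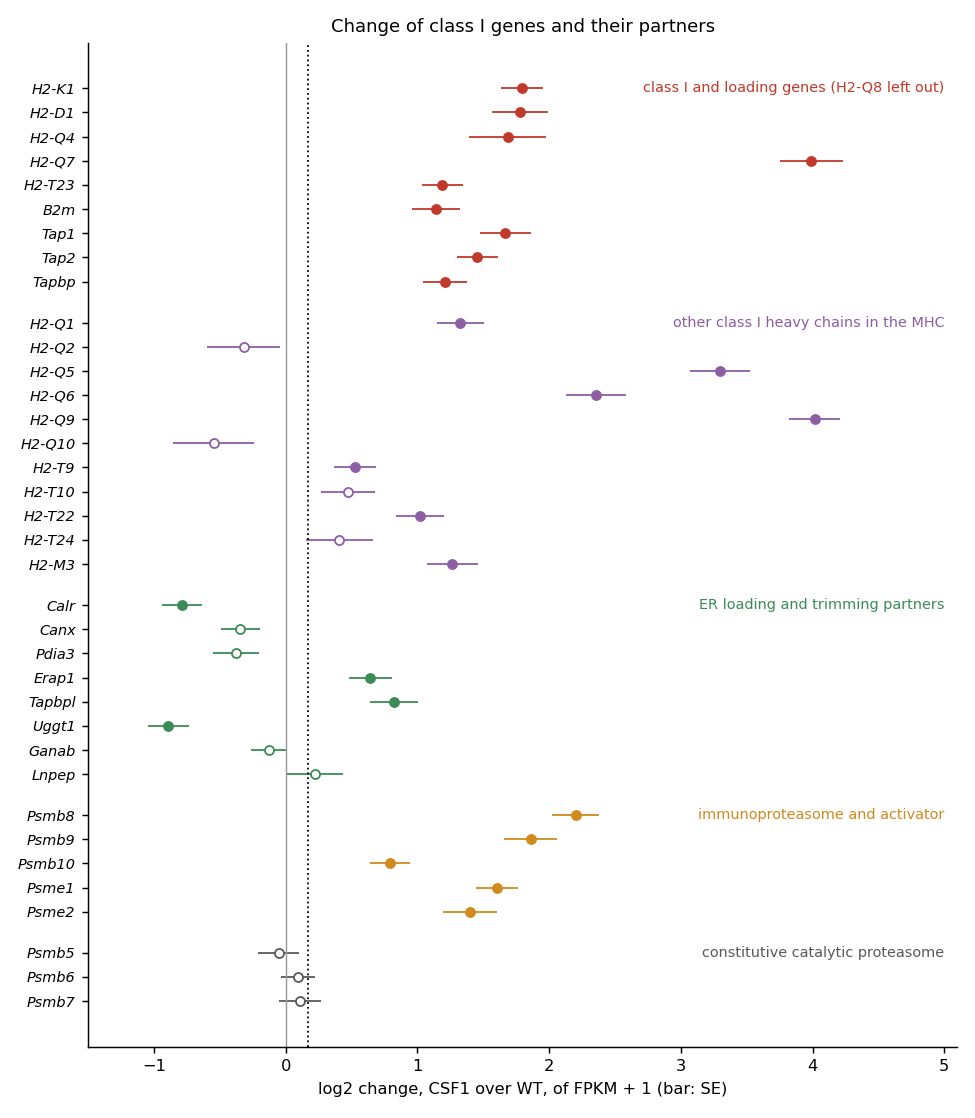
Log2 change of FPKM + 1, CSF1 over WT, with SE, for the class I and loading genes (H2-Q8 left out because WT was listed at 0), other MHC heavy chains, ER partners, immunoproteasome genes and constitutive proteasome subunits. Filled points passed the test (limma adjusted p under 0.05) and the dotted line is the median of all tested genes (0.17), with the 9 class I and loading genes all at 1.14 or above and Calr and Uggt1 below 0.

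Among the transcription factors of class I genes, 8 of 14 tested were higher and 0 lower (limma, 0 lower also at an unadjusted p under 0.05), with a median change of 0.72. All 14 averaged at least 1 FPKM in WT, and of all genes at that level 19.7% were called higher. Of the 8, Irf8 and Nfyb, named after their values were seen, lost their call most often, each in 10 of 20 alternative fits. Irf1, an interferon-induced activator, had 55.5, 68.8 and 74.4 FPKM in CSF1 replicates, against 10.8, 16.7 and 19.1 FPKM in WT replicates (change 2.05 ± 0.22, SE, limma adjusted p = 0.000223). Irf9, an interferon regulatory factor, rose by 1.84 and the NF-kB subunit gene Rela by 0.77, while Irf2 (-0.24) did not pass. Rela missed the threshold without WT replicate 3 (limma adjusted p = 0.0550), without WT replicate 5 (0.0719) and under median-ratio scaling (0.0556), and Irf2 was called lower under 3 other scalings. Nlrc5, the class I coactivator, lay under the minimum for testing. It had 1.32, 0.701 and 2.36 FPKM in CSF1 replicates and 0.137, 0.193 and 0.0765 FPKM in WT replicates, so its groups did not overlap at these low levels.

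Of the interferon ligands, receptors and kinases, 6 of the 9 with at least 1 FPKM in WT were higher, with a median change of 0.80. Among all genes at that WT level 19.7% were called higher. Ifnlr1 lost its call in 11 of 19 alternative fits and Ifnar1 in 2, both named after their values were seen. Ifngr1, a receptor chain for interferon gamma, had 52.4, 52.6 and 95.0 FPKM in CSF1 replicates, against 21.4, 16.1 and 19.9 FPKM in WT replicates. Ifngr2, its partner chain, had 44.9, 55.2 and 60.01 FPKM in CSF1 replicates and 17.8, 21.7 and 26.9 FPKM in WT replicates. The kinase gene Jak1 rose by 0.80, and the type I receptor chain gene Ifnar2 (0.28) did not pass. Named after their values were seen, the ligand gene Ifnb1, which entered the test only through its CSF1 values, had 12.4, 5.39 and 27.4 FPKM in CSF1 replicates and 0.620, 0 and 0.860 FPKM in WT replicates, and Ifng had 0.0965, 0.101 and 1.15 FPKM in CSF1 replicates and was listed at 0 in WT.

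MHC class II genes, which present peptides from outside the cell and are typical of macrophages and dendritic cells, were all higher where tested (6 of 6, median change 5.30). These 6 averaged at least 1 FPKM in WT, and of all genes at that level 19.7% were called higher. The changes were 5.80 for H2-Ab1, 5.30 for H2-Aa, 5.30 for H2-Eb1, 2.68 for H2-DMb1 and 2.07 for H2-DMa, while the class II coactivator gene Ciita, at 0.226 to 1.30 FPKM in CSF1 and at most 0.0316 FPKM in WT, was too low to test. Cd74, the class II invariant chain, stood at 0.162, 0.243 and 0.573 of B2m in CSF1 replicates 3, 5 and 8 and at 0.00639, 0.0183 and 0.0229 of B2m in WT replicates. CSF1 replicate 8 stood apart for class II but less so for class I. Its FPKM over the mean of CSF1 replicates 3 and 5 was 1.06 to 2.16 for the 10 class I and loading genes (median 1.24), 2.52 to 3.20 for the 6 class II genes tested (median 3.07) and 0.839 to 4.19 for the 14 macrophage markers (median 3.59). Without CSF1 replicate 8 all 10 genes were still called higher, with a median change of 1.44, H2-Q8 again only through its CSF1 values. In that fit 2383 of all 10830 genes tested were called higher, and the median change of all genes was 0.19. The part of macrophages in the class I result was not tested. Genes of the cells that read class I were low. The 9 T and natural killer cell recognition genes, Cd8a and Ncr1 among them, summed to 5.22, 5.01 and 15.6 FPKM in CSF1 replicates and 0.383, 1.09 and 0.670 FPKM in WT replicates.

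**Figure D4:**
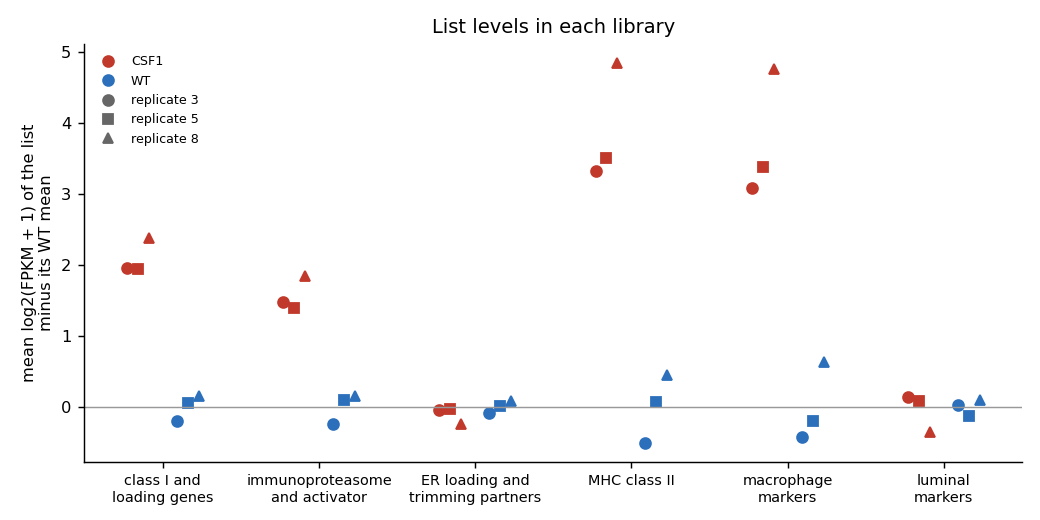
Mean log2(FPKM + 1) of each gene list in each library minus the list's WT mean, for CSF1 (red, left) and WT (blue, right), with marker shapes for replicates 3, 5 and 8. CSF1 replicate 8 lay far above the other CSF1 libraries for class II and macrophage genes and less so for class I and loading genes. The ER partners and luminal markers moved far less, with CSF1 replicate 8 the lowest library for both. Before subtraction its luminal mean was 7.91, against a WT mean of 8.27.

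Over the 6 libraries, the genes outside the 10 whose log2(FPKM + 1) was most like the mean of the 10 were Cd44 (Pearson r = 0.9996), Phlda3 (r = 0.9995) and Pfkp (r = 0.9992), given as a description over 6 libraries of 2 groups, so the group difference carries most of it. Cd44, a hyaluronan receptor, had 27.5, 26.6 and 45.0 FPKM in CSF1 replicates and 0.890, 1.38 and 1.99 FPKM in WT replicates. Phlda3, known as a p53 target, had 13.2, 13.3 and 16.1 FPKM in CSF1 replicates and 3.90, 4.67 and 4.69 FPKM in WT replicates. Pfkp, a glycolytic phosphofructokinase, had 7.15, 7.58 and 10.7 FPKM in CSF1 replicates and 0.892, 1.15 and 1.27 FPKM in WT replicates.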

How the data were processed

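RNA of sorted luminal cells was measured in 3 CSF1 and 3 WT libraries. SMART-Seq v4 cDNA was sequenced, per the labels' protocols, on a HiSeq instrument, with both Nextera XT and TruSeq DNA named as library kits. Neither marks strand, so reads of overlapping genes cannot be told apart by strand. Per the submitters' processing notes, bcl2fastq 1.8.3, TopHat and Cufflinks were used with mm10, with no version given for TopHat and Cufflinks. Each library has 1 isoform table deposited by the authors, with FPKM and its confidence bounds and a coverage signal per transcript, per the file headers. Fragment totals are not given, so no counting interval was computed. Cufflinks' bounds cover its own estimate within a library and not the spread between libraries.

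FPKM was summed per symbol, 9 genes with a HIDATA or FAIL status were left out, and 10951 genes averaging 1 FPKM or more over the libraries were tested as log2(FPKM + 1). This scale understates changes of low genes. The test was limma 3.58.1 in R 4.3.3 (intensity trend, two-sided, adjusted p threshold 0.05), tested on simulated data. Sums and ratios were compared by exact permutation. The 10 genes, the lists and the naming rule were chosen with earlier results of these data known. The rule named the 10 genes, every gene of lists of up to 8, and in longer lists the 4 with the highest mean FPKM plus Nlrc5, Irf1 and a further gene that is not reported here, with the 3 genes most like the 10 by correlation. Lists are described by counts and medians. Replicate numbers from the titles were checked for pairing: deviations of libraries with the same number correlated at 0.257, 0.111 and 0.182, all above those of other pairs, so a fit with the number as a block was run beside the main one. Alternatives tried were other pseudocounts, filters, scalings, no trend, the most abundant transcript, the block and each library left out. Promoters came from RefSeq (GRCm38.p6) and 50-base words from the GENCODE transcripts. Plots used Python 3.11.15, pandas 2.3.3, numpy 2.4.6 and matplotlib 3.10.9.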

Additional observations from a re-analysis of the deposited data

How the results depend on the processing

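All 10 class I and loading genes kept their direction and stayed past the threshold in all 199 fits run on them, with a lowest change of 0.83 and a highest adjusted p of 0.0382. H2-Q8 entered these fits only through its CSF1 values. H2-Q4 was not tested with a minimum of 5 FPKM, where 9 genes remained. With the replicate number as a block, 10 genes were again called higher, with 2883 genes higher and 890 lower in all, and of the listed genes Rfx5 gained a call (adjusted p = 0.0477). Counts over all genes moved more. The 2731 higher genes became 1761 with a minimum of 5 FPKM and 1694 after quantile normalization, and between 1519 and 2489 with libraries left out, the lowest without replicate 5 of both groups. The 818 lower genes became 2362 after quantile normalization, 1762 after median-ratio scaling and 1437 after rescaling outside the 5 most abundant genes, and between 341 and 850 with libraries left out (478 without WT replicate 5, 526 without WT replicate 8, 485 without replicate 8 and 341 without replicate 5 of both groups). The 3 listed pathway genes called lower (Azgp1, Calr and Uggt1) became 5, 6 and 5 under those scalings. Under quantile normalization the direction turned for genes that had not passed: Creb1 (-0.0572), H2-T10 (-0.0764), H2-T24 (-0.24), Lnpep (-0.36), Mr1 (-0.14), Nfyc (-0.0391), Rfxank (-0.13), Rfxap (-0.22) and Tyk2 (-0.0261). Rfxap also turned under median-ratio scaling (-0.0790) and rescaling outside the 5 most abundant genes (-0.0477). Listed genes that missed the threshold with replicate 5 of both groups left out included Calr, Erap1, H2-T9, Hfe, Ifnlr1, Irf8, Jak1, Nfyb, Rela and Tapbpl. Their limma adjusted p ran from 0.0618 to 0.216. With replicate 3 of both left out they included Erap1 (0.0940), Hfe (0.0887), Rela (0.0771), H2-T9 (0.201), Ifnar1 (0.0616), Ifnlr1 (0.105), Mill2 (0.0952) and Nfyb (0.0731). Without replicate 8 of both they included H2-T9, Ifnlr1, Irf8 and Mill2. The cause was not tested. The log2 difference of summed heavy chains, 1.77, was 1.60, 1.54 and 1.57 under the 3 scalings, which were chosen for this sum after seeing the data. Low genes such as H2-Q4 are limited by depth.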
